A study of Mus musculus with 23 samples.

Results

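Connexins are the membrane proteins that build gap junctions, and 7 of their genes are described here in cells of the mouse incisor: Gja1, Gja4, Gja5, Gjb2, Gjb5, Gjb6 and Gjc1. They were taken by name from a table of 54347 genes, in which 20 genes are annotated as connexins, so the other 13 connexins and the 3 pannexins serve for comparison. RNA was sequenced from cells of the labial cervical loop, the epithelial fold at the growing end of the lower incisor, dissected from mice at postnatal day 2. All mice carried green fluorescent protein (GFP) under the endogenous Sox2 promoter, and flow sorting on GFP gave a Sox2-positive population, named dental epithelial stem cells in the labels, and a Sox2-negative population from the same dissected region. Batches A and B were prepared on separate days from different mice. Batch A gave 6 libraries of each population, and batch B gave 4 Sox2-negative and 7 Sox2-positive libraries, which makes 4 groups. The labels name no treatment, and the sort marks Sox2 promoter activity rather than a cell type. The labels do not say whether libraries of a batch came from separate mice or from pools, so p-values measure the spread between libraries, which may be technical.

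A connexin hexamer forms a channel in one cell, and when it docks with a channel of the neighbouring cell, ions and small signalling molecules pass between the cytoplasms. Cells carry different connexins: Gja1 (Cx43) is the most widely expressed and is found in epithelium and mesenchyme of teeth, Gja4 (Cx37) and Gja5 (Cx40) are known from vessel walls, Gjb2 (Cx26) and Gjb6 (Cx30) from epithelia such as the skin and the inner ear, and Gjc1 (Cx45) from the heart and smooth muscle. The coding sequence of most connexin genes lies in a single exon, which held for 6 of the 7 genes in the longest coding transcript of the GENCODE M21 annotation (GRCm38), with Gja5 divided over 2 exons.

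The genes lie on 5 chromosomes. Gja4 (chr4:127311421-127314039, minus strand) and Gjb5 (chr4:127354809-127358181, minus strand) lie on chromosome 4. Gjb2 (chr14:57098600-57104702, minus strand) and Gjb6 (chr14:57123303-57133611, minus strand) are neighbours with 18600 bases between them. Gja1 is at chr10:56377330-56402513 (plus strand), Gja5 at chr3:96904693-97077416 (plus strand) and Gjc1 at chr11:102799579-102819700 (minus strand). Of the members, Gja5 shares most with other genes: 16.6% of the 31-base words of Gja5 transcripts also occur in transcripts elsewhere, so the Gja5 values are uncertain. For the other members that share was at most 1.35%.

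Of the 7 members, 6 had a promoter entry in the RefSeq table (GRCm38.p6, 250 bases before to 50 after the annotated start). The promoters of Gja1, the most abundant member, and of the vessel connexins Gja4 and Gja5, which were both lower in Sox2-positive cells, are printed on their own strand from 5′ to 3′. Capitals mark matches, searched on both strands, to the AP-1 letters TGANTCA, to a GC box with letters GGGCGG, to the core of SOX factor sites with letters ACAAAG, to TATAAA letters or, for factors of the GATA family, to letters written GATAAG.
Gja1: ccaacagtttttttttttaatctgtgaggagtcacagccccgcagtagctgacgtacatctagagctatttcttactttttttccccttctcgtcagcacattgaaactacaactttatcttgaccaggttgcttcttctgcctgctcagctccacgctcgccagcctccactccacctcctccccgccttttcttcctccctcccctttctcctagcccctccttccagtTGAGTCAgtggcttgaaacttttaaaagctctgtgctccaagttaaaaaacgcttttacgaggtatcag
Gja4: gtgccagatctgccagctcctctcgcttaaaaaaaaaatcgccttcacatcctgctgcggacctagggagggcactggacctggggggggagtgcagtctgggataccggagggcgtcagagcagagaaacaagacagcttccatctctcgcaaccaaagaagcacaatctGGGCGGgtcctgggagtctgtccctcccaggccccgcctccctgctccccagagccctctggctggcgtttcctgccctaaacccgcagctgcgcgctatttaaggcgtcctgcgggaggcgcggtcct
Gja5: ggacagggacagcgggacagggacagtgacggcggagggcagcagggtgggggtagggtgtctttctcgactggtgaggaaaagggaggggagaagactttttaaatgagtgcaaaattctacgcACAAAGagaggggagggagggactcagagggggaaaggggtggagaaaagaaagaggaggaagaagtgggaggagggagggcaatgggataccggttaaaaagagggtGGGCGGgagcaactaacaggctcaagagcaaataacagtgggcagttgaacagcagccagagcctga
The Gja1 window is chr10:56377050-56377349 (plus strand), the Gja4 window chr4:127313990-127314289 (minus strand) and the Gja5 window chr3:97032152-97032451 (plus strand), the last inside the GENCODE span of the gene. With the annotated start as base 0, the AP-1 letters of Gja1 stood at -19 to -13, and 7.93% of all 27025 promoters of this length hold that motif. Gja4 had a GC box at -79 to -74 and Gja5 at -17 to -12, a motif in 35.9% of promoters. The SOX core letters, in 18.7% of promoters, stood at -125 to -120 of Gja5. GATA letters occur in 7.43% and TATA letters in 14.2% of promoters, and neither was in these 3 windows. E-box letters (CANNTG), in 72.1% of promoters, were searched too and are not capitalised: each of these 3 windows held 1, and that of Gja1, at -23 to -18, overlaps the AP-1 match. These matches are descriptions of letters, not binding sites.

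Library totals ranged from 2305778 to 9541443 estimated counts, and 3 counts, taken as the smallest visible level, equalled 0.314 to 1.3 CPM (counts per library total after TMM scaling, brought to the same depth). Sox2 itself, the check of the sort, was 7.27 ± 4.41 CPM (SD, n = 6) in batch A Sox2-positive and 0.0436 ± 0.107 in Sox2-negative libraries, and the batch B levels were 16.4 ± 2.91 (n = 7) and 0.297 ± 0.594 (n = 4). All 12 epithelial markers were higher in Sox2-positive cells, and all 11 mesenchymal, 10 endothelial and 9 leukocyte markers were lower, by the edgeR test over both batches. Of all genes tested there, 24.9% were higher and 32.5% lower. Ameloblast markers, also epithelial, went mostly the other way: of 5 tested, 4 were lower and 1 was higher in Sox2-positive cells. Glial markers differed between batches: among Sox2-positive libraries their summed level was 994 to 1282 CPM for batch A but 50.8 to 86.4 CPM for batch B, and it was at most 31.6 CPM in the Sox2-negative ones. Among Sox2-negative libraries, erythroid markers summed to 53611 to 62038 CPM in batch B and to 985 to 1188 CPM in batch A. In batch B, libraries numbered 1 and 2 stood closer to each other (Pearson r across genes 0.938 in Sox2-negative, 0.978 in Sox2-positive) than to the rest of their group (0.885 to 0.896 and 0.943 to 0.955), so results were repeated without them. In bulk RNA, fewer cells of a type and less RNA per cell cannot be told apart.

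Connexin RNA was dominated by Gja1 in all 4 groups, Gjc1 came next by its mean, and the vessel connexin Gja4 made a visible share only in Sox2-negative cells. Levels were compared between genes as CPM per kilobase of the longest coding transcript. By that measure Gja1 held 77.2% ± 3.64 (SD, n = 6) of the summed connexin level in Sox2-negative and 79.6% ± 1.81 (n = 6) in Sox2-positive cells of batch A. For batch B its shares were 79.8% ± 3.99 (n = 4) and 83.2% ± 1.48 (n = 7). Gjc1 held mean shares of 10.4% to 13.1%. Gja4 held 10% ± 2.86 (batch A) and 5.61% ± 2.64 (batch B) in the Sox2-negative cells, but 0.018% ± 0.0442 and 0.403% ± 0.358 in the Sox2-positive cells. Gja5, Gjb2, Gjb5 and Gjb6 each had a mean share under 1% in every group. The 7 members together made up 92.4% to 98.8% of the summed level, with the lowest value in batch A Sox2-positive libraries, where the non-member Gjc3 held 5.45% ± 1.31.

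**Figure D1:**
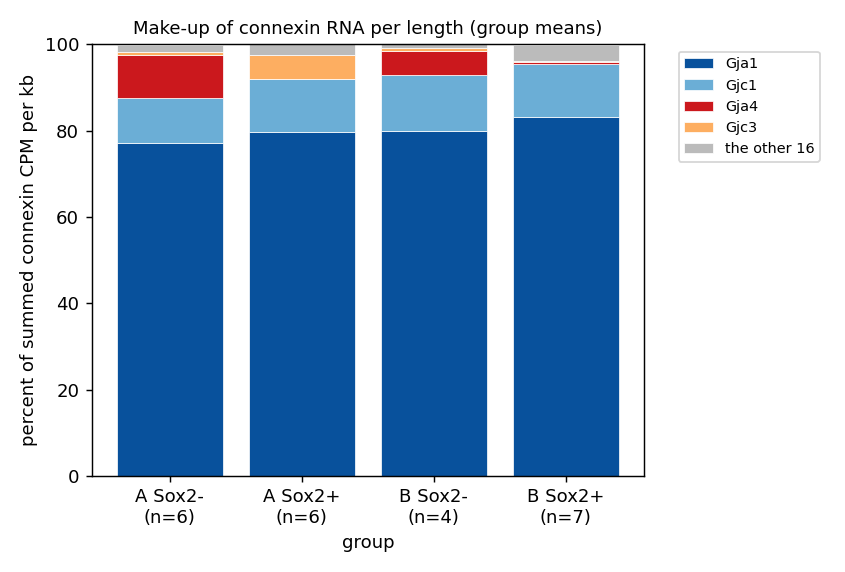
Share of the summed connexin level (CPM per kilobase, percent of the sum over 20 connexins, y axis) held by Gja1, Gjc1, Gja4, Gjc3 and the other 16 connexins in each group (x axis), as means over libraries. Gja1 fills 77.2% to 83.2% of each bar, and Gja4 is visible in the Sox2-negative bars.

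Sox2-positive and Sox2-negative cells differed in most of the members that could be tested. In the model of both batches, with batch as a covariate, 6 of the 7 members passed the filter on low counts: Gja1, Gjc1, Gjb2 and Gjb6 rose and Gja4 and Gja5 fell in Sox2-positive cells (edgeR quasi-likelihood test, Benjamini-Hochberg adjusted p under 0.05). Gjb2 and Gjb6 passed the filter only through Sox2-positive libraries and Gja4 and Gja5 only through Sox2-negative ones, so their calls are not independent of it. Of all 17190 genes tested, 57.5% were called, 24.9% higher and 32.5% lower, so a call by itself says little about these genes. The median log2 fold change was 0.40 over the 6 members and -0.12 over all genes tested. Within batch A 3 members were tested and called, 2 higher and 1 lower, where 43.4% of genes were called (19.3% higher, 24.2% lower). In batch B 4 members were tested and 3 called, 2 higher and 1 lower, where 54.7% of genes were called (27.1% higher, 27.6% lower). The fit of both batches and those of single batches use the same libraries and are not independent.

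**Figure D2:**
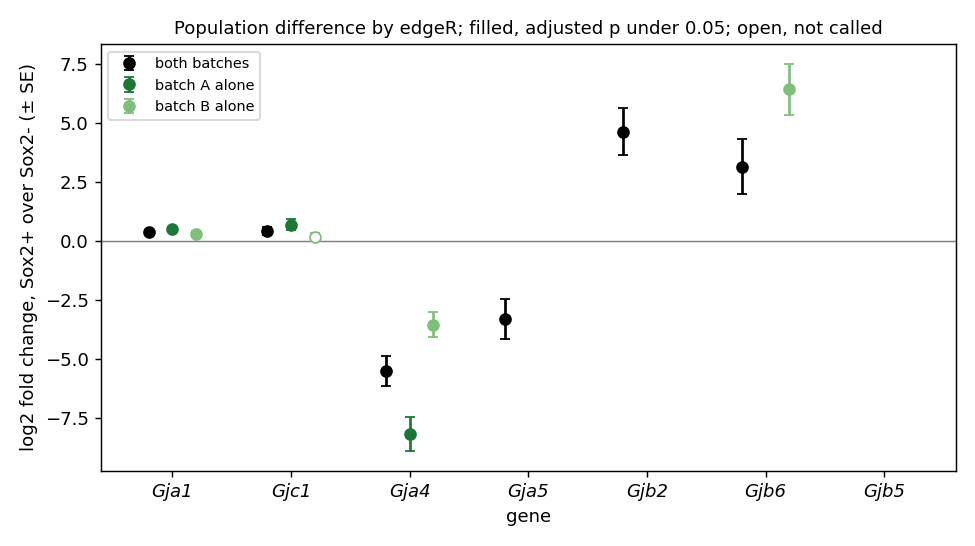
Log2 fold change of Sox2-positive over Sox2-negative cells (y axis, ± SE) for each connexin gene (x axis), fitted over both batches, in batch A and in batch B. Gja4 and Gja5 lie below 0 and the other tested members above it, and Gjb5 was not tested.

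Gja1 carries most gap junction coupling in many tissues. In batch A Sox2-negative libraries it stood at 439, 461, 503, 513, 524 and 589 CPM, and in Sox2-positive libraries at 653, 661, 685, 702, 755 and 795 CPM. Every Sox2-positive library of batch A was above every Sox2-negative one. In batch B the Sox2-negative libraries had 442, 525, 705 and 698 CPM, and the 7 Sox2-positive libraries ran from 654 CPM through a median of 690 to 754 CPM. These groups overlapped: Sox2-negative libraries 1 and 2 were below all Sox2-positive ones, while libraries 3 and 4 lay among them. Gja1 was higher in Sox2-positive cells by a log2 fold change of 0.37 (SE 0.08, edgeR adjusted p = 0.000238) over both batches and of 0.50 (SE 0.09, edgeR adjusted p = 0.000203) in batch A. The batch B difference of 0.31 (SE 0.12, edgeR adjusted p = 0.0471) rested on few libraries: without libraries 1 and 2 of both populations it was 0.04 (edgeR adjusted p = 0.664), and it missed the threshold in 8 of 11 fits that left out a single library (Sox2-negative 1 and 2, Sox2-positive 2 to 7; 0.18 to 0.32 in these). The difference between the batches' effects was -0.25 (SE 0.15, edgeR adjusted p = 0.357), and -0.49 (edgeR adjusted p = 0.0477) without those libraries. In order, the group means were 709 ± 55.9 CPM (A, Sox2-positive), 699 ± 36.3 (B, Sox2-positive), 592 ± 130 (B, Sox2-negative) and 505 ± 52.6 CPM (A, Sox2-negative), and each group's range overlapped that of the next.

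Gjc1 forms channels in cardiac conduction tissue and smooth muscle. In batch A Sox2-negative libraries its level spread widely, at 28, 32.8, 37.7, 61.1, 63.9 and 76.2 CPM, whereas the Sox2-positive libraries had 71.5, 73.6, 76, 82.8, 84.1 and 93.9 CPM. Only the highest Sox2-negative library reached into the range of the Sox2-positive ones. Batch B Sox2-negative libraries had 61.5, 81.8, 76.8 and 54.7 CPM, and the Sox2-positive ones lay between 59.6 and 95.5 CPM with a median of 73.7 CPM, so these groups overlapped. Over both batches Gjc1 was higher in Sox2-positive cells by 0.42 on the log2 scale (SE 0.16, edgeR adjusted p = 0.024), and in batch A by 0.69 (SE 0.24, edgeR adjusted p = 0.0291). The batch A call was lost without Sox2-negative library 1, 4 or 6 or Sox2-positive library 4 (log2 fold changes 0.57 to 0.66, edgeR adjusted p up to 0.061). In batch B the difference of 0.19 (SE 0.16, edgeR adjusted p = 0.326) did not pass, and the difference between batches was -0.56 (SE 0.30, edgeR adjusted p = 0.302). The order of the means was 80.3 ± 8.35 CPM (A, Sox2-positive), 74.8 ± 11.3 (B, Sox2-positive), 68.7 ± 12.7 (B, Sox2-negative) and 49.9 ± 19.7 CPM (A, Sox2-negative), with overlap between all neighbours.

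**Figure D3:**
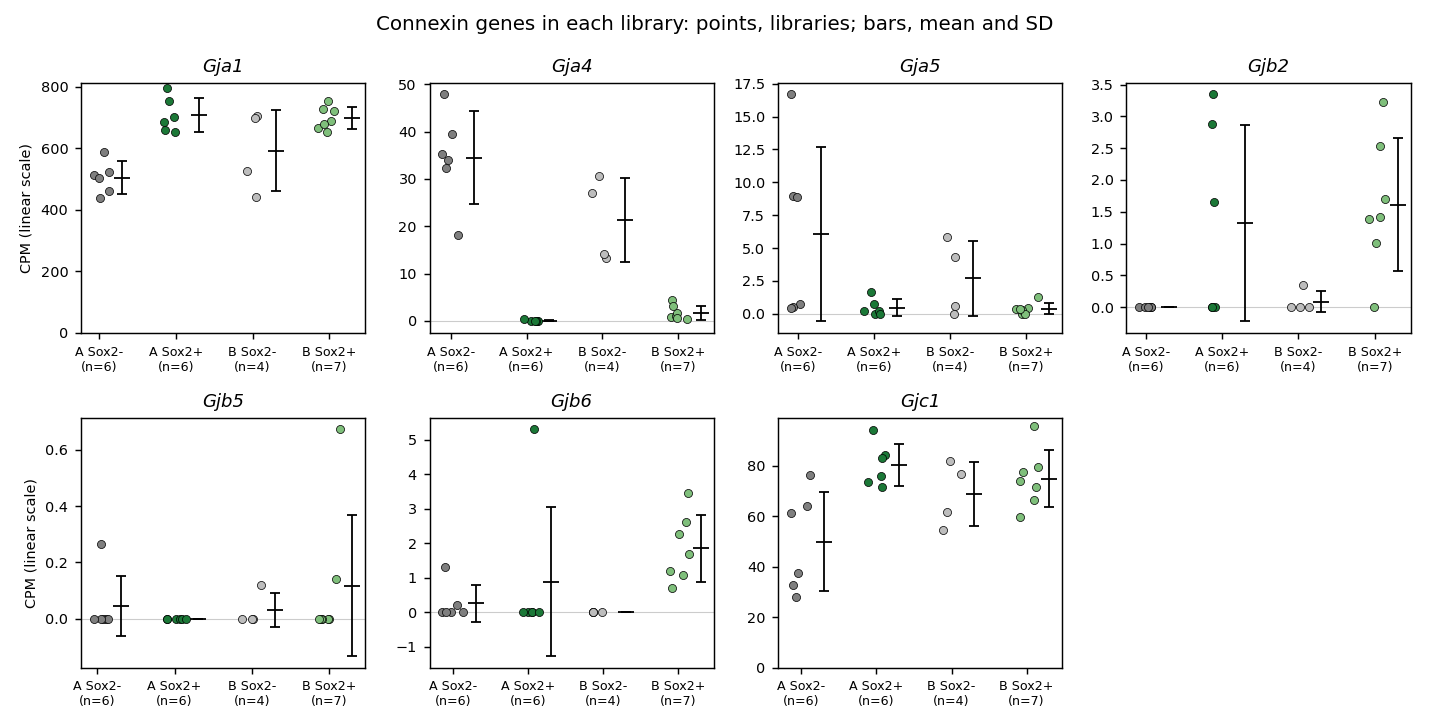
CPM (linear y axis, a scale for each gene) of the 7 connexins in each library (points) of the 4 groups (x axis), with the mean and SD as bars. Gja4 is separate between populations in both batches, and Gja5 is high in 3 of 6 batch A Sox2-negative libraries.

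Gja4, known from endothelium and the muscle layer of vessels, had the largest fitted difference of the members over both batches. In batch A it stood at 18.2, 32.4, 33.9, 35.2, 39.5 and 47.9 CPM in the Sox2-negative libraries, and was 0 in 5 Sox2-positive libraries and 0.478 CPM (3 counts) in the remaining one. In batch B the Sox2-negative libraries had 27, 13.2, 14.2 and 30.6 CPM, and the 7 Sox2-positive libraries had 0.432, 0.545, 0.842, 1.13, 1.69, 3.23 and 4.36 CPM. The populations did not overlap in either batch, and every batch B Sox2-positive library held at least 1 count. Pooling the batches, the fit gave a log2 fold change of -5.51 (SE 0.64, edgeR adjusted p = 4.15e-08), with -8.16 (SE 0.73, edgeR adjusted p = 2.41e-07) in batch A and -3.54 (SE 0.52, edgeR adjusted p = 2.98e-05) in batch B. Gja4 passed the filter on low counts only through Sox2-negative libraries. These p-values are therefore not independent of the filter and are given as a description. Since batch A Sox2-positive libraries held 3 counts in all, the ratio of pooled CPM is given with its 95% counting interval: 362 (124 to 1761) in batch A and 13.4 (10.1 to 18) in batch B. Such intervals and floors cover counting error only, because PCR copies of a molecule were not marked by identifiers.

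The population difference of Gja4 itself differed between batches. The interaction, batch B minus batch A, was 4.58 on the log2 scale (SE 0.94, edgeR adjusted p = 0.00234), and Gja4 was the 1 member of 6 called, where 7.04% of genes were called (2.82% higher, 4.22% lower). It was called in each of the 31 alternative fits, with adjusted p up to 0.0267, and was 6.88 without Sox2-positive library 6 of batch A, which holds the only 3 counts of its group. Between batches, Gja4 was higher in batch B within Sox2-positive cells by 3.88 (SE 0.74, edgeR adjusted p = 0.000667; 6.16 without that library) and was the 1 member called, where 10.4% of genes were called (4.85% higher, 5.54% lower). Within Sox2-negative cells the difference was -0.70 (SE 0.54, edgeR adjusted p = 0.459). No member was called there, against 11.2% of genes (5.85% higher, 5.35% lower). Scaling by total counts in place of TMM changed that background from 1005 higher and 919 lower genes to 661 and 1388, and in Sox2-positive cells from 833 and 952 to 666 and 1214.

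Markers of vessel cells were measured beside Gja4. The 10 endothelial markers, led by Egfl7, were all lower in Sox2-positive cells, with a summed level of 19.7 to 36.1 CPM (batch A) and 22.1 to 39.1 CPM (batch B) there, while Sox2-negative libraries had 1245 to 1573 and 319 to 459 CPM. Of that level in Sox2-positive cells, Egfl7 made up 25.3 ± 5.84 CPM (n = 6) and 23.9 ± 5.65 CPM (n = 7), and no marker was at 0 in every library. The endothelial sums of the Sox2-positive libraries overlapped between batches, where Gja4 differed, and Gja4 equalled 0% to 1.82% of that sum in batch A and 1.79% to 13.5% in batch B. Since Egfl7 made up most of the sum, its overlap says little about the other endothelial markers. Of the 10 markers tested between batches in Sox2-positive cells, 1 was higher in batch B, 0 were lower and 9 did not pass. Of all genes, 4.85% were higher and 5.54% lower. The summed level of the 10 mural markers, of pericytes and smooth muscle, was higher in the Sox2-positive libraries of batch B, as Gja4 was: 278 to 325 CPM in batch A and 560 to 591 CPM in batch B, with the largest increases in Acta2 (30.9 ± 7.77 against 205 ± 13.3 CPM) and Tagln (63.1 ± 6.71 against 207 ± 11.9 CPM). The list did not move as one: of 9 mural genes tested between batches in Sox2-positive cells, 4 were higher, 1 was lower and 4 did not pass, and Mcam went the other way (139 ± 7.33 against 54.6 ± 5.46 CPM), while Myh11, not tested, was at 0.314 ± 0.768 and 0.229 ± 0.536 CPM. Rgs5, a pericyte marker, was at 0.918 ± 1.92 and 1.42 ± 0.971 CPM in those groups. The part of mural cells in the Gja4 difference was not tested.

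Gja5, the connexin of arterial endothelium and atrial muscle, was low and uneven. Batch A Sox2-negative libraries had 0.42, 0.527, 0.775, 8.89, 8.97 and 16.7 CPM, and Sox2-positive libraries 0, 0, 0.179, 0.201, 0.752 and 1.66 CPM. Batch B Sox2-negative libraries had 0.594, 4.35, 5.87 and 0 CPM, and Sox2-positive libraries ran from 0 through a median of 0.359 to 1.3 CPM. In both batches some Sox2-negative libraries were well above all Sox2-positive ones and others lay among them. Over both batches Gja5 was lower in Sox2-positive cells (log2 fold change -3.30, SE 0.84, edgeR adjusted p = 0.00158), and it did not pass the filter within a single batch. Arterial markers are given beside these values, and their part in the Gja5 levels was not tested. The 3 batch A Sox2-negative libraries above 8 CPM had summed levels of 6 arterial markers of 172, 224 and 215 CPM, and the 3 below 1 CPM had 224, 282 and 329 CPM. The transcription factor Sox17, an arterial marker, was at 52.8, 13.3 and 13.4 CPM in the first and 34.1, 27.7 and 21.4 CPM in the second. The sum holds Efnb2, which was higher in Sox2-positive cells (log2 fold change 0.86, edgeR adjusted p = 8.77e-06).

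Gjb2 and Gjb6, neighbours on chromosome 14, were close to the limit of detection, and nearly all of their counts came from Sox2-positive cells. Gjb2 was 0 in all 6 batch A Sox2-negative libraries and had 0, 0, 0, 1.66, 2.88 and 3.35 CPM in the Sox2-positive ones, at least 10.9-fold higher over the pooled libraries when 3 counts over the group are taken as the floor. In batch B the Sox2-negative libraries had 0, 0, 0 and 0.34 CPM (2 counts), and the Sox2-positive libraries 0, 1.01, 1.38, 1.41, 1.7, 2.54 and 3.23 CPM. In that batch 6 of 7 Sox2-positive libraries were above all Sox2-negative ones, with a pooled ratio of 21.7 (95% counting interval 5.74 to 184). The fit of both batches gave a log2 fold change of 4.62 (SE 0.99, edgeR adjusted p = 0.000259), whose size depends on the small count added by the fit. Gjb2 passed the filter on low counts only through Sox2-positive libraries, so this p-value is not independent of the filter and is given as a description. It did not pass within a single batch. Over both batches it did not pass without Sox2-positive library 1 or 6 of batch A, or 5 or 6 of batch B.

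Gjb6 differed in pattern. In batch A it was found in 2 Sox2-negative libraries (0.214 and 1.32 CPM) and in 1 Sox2-positive library, replicate 1, at 5.31 CPM (24 counts). In batch B it was 0 in all 4 Sox2-negative libraries and 0.718, 1.09, 1.21, 1.68, 2.26, 2.61 and 3.46 CPM in the Sox2-positive ones, so each of these was above each Sox2-negative library. Pooled, that was at least 16.9-fold higher with the same floor, and the batch B fit gave 6.42 (SE 1.08, edgeR adjusted p = 0.000216). Gjb6 too passed the filter only through Sox2-positive libraries, in batch B and over both batches, so its p-values are given as a description. The fit of both batches gave 3.15 (SE 1.17, edgeR adjusted p = 0.0231), a call lost without batch B libraries 1 and 2 (2.58, edgeR adjusted p = 0.133). Without Sox2-negative library 3 of batch A alone, the value over both batches was 4.85 (edgeR adjusted p = 0.000962), and without Sox2-positive library 1 of batch A or library 2, 3 or 7 of batch B Gjb6 no longer passed the filter on low counts. The interaction of 4.56 (SE 2.15, edgeR adjusted p = 0.235) and the difference between batches in Sox2-positive cells of 1.07 (SE 1.20, edgeR adjusted p = 0.699) did not pass, whereas limma-voom called both (4.76, adjusted p = 0.0479, and 3.20, adjusted p = 0.00223).

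Gjb5, known from skin and placenta, had 7 counts over all 23 libraries: 1 in the Sox2-negative cells of each batch and 5 in Sox2-positive cells of batch B, 4 of them in 1 library. It passed the filter in none of the fits. All its values lie at or near the floor, and a difference was not detectable at this depth.

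Of the connexins that are no members, Gja3, Gjc3 and Gje1 reached a mean of 1 CPM in some group. Gja3 and Gjc3 passed the filter and were called higher in Sox2-positive cells in the fit of both batches. For Gjc3 this held in batch A alone (log2 fold change 3.83, SE 0.30, edgeR adjusted p = 4.27e-08). In batch B the Gjc3 difference was -0.26 (SE 0.47, edgeR adjusted p = 0.664). Gje1 did not pass it, with means of 1.26 ± 0.819 and 1.3 ± 0.318 CPM in the Sox2-negative and 0.25 ± 0.32 and 0.409 ± 0.252 CPM in the Sox2-positive groups of batches A and B. Gja3, a lens connexin, was 0 in all batch A Sox2-negative libraries and 0, 2.45, 2.69, 9.56, 18.4 and 21.3 CPM in Sox2-positive ones, while batch B had at most 0.75 CPM in the former and 0.485 to 28.1 CPM in the latter (difference on the log2 scale 6.33, SE 0.94, edgeR adjusted p = 2.14e-06). Gja3 passed the filter only through Sox2-positive libraries, so its p-value is not independent of the filter and is given as a description. Gjc3, a connexin of myelinating glia, was 40.5 to 78.5 CPM in batch A Sox2-positive libraries and 1.44 to 5.82 CPM over the other 3 groups. The interaction, batch B minus batch A, was -4.15 (SE 0.46, edgeR adjusted p = 9.99e-07), and the summed glial markers given earlier were higher in the same libraries. The part of glial cells in it was not tested.

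**Figure D4:**
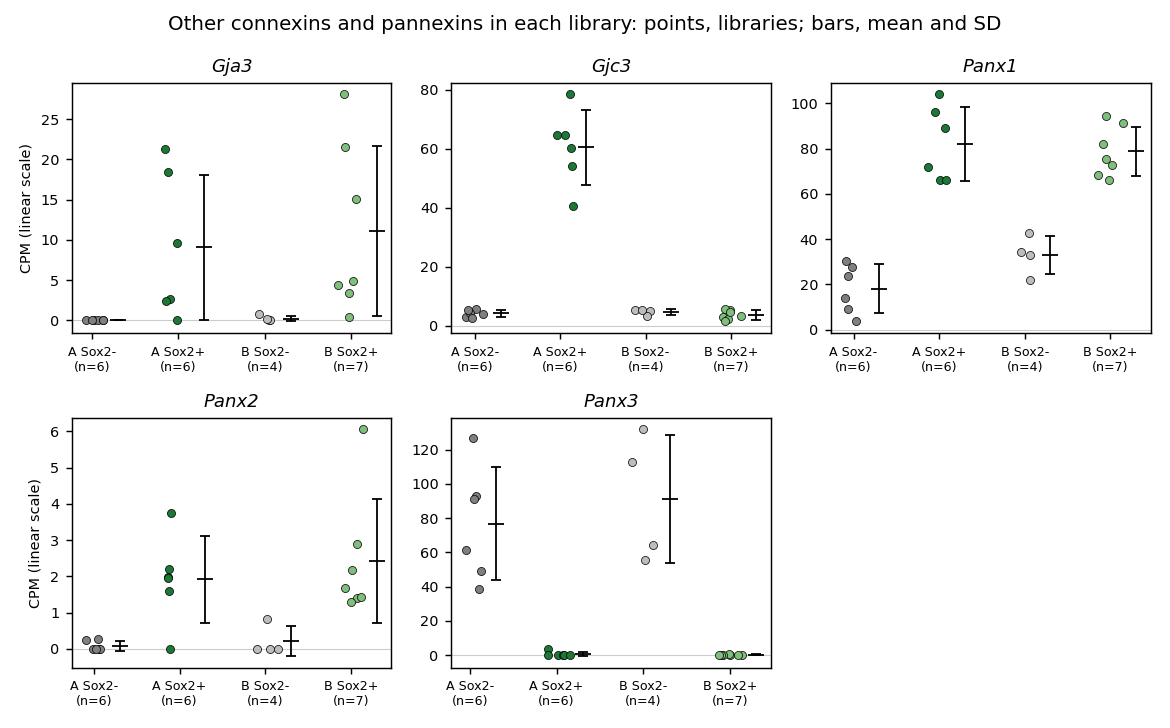
CPM (linear y axis, a scale for each gene) of 2 other connexins and the 3 pannexins in each library (points) of the 4 groups (x axis), with the mean and SD as bars. Gjc3 is high in batch A Sox2-positive libraries only, at 40.5 to 78.5 CPM, and Panx1 and Panx3 separate the populations in both batches.

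Pannexins resemble connexins in shape but open to the outside of the cell, and Panx1 and Panx3 separated the populations in both batches. Panx1 was 3.62 to 30.5 CPM in batch A Sox2-negative and 66.2 to 104 CPM in Sox2-positive libraries, and 21.8 to 42.5 against 66.2 to 94.5 CPM in batch B, with no overlap (log2 fold change over both 1.74, SE 0.25, edgeR adjusted p = 1.03e-06). Panx2 was low, with overlap between the populations in batch A, where it was not tested, and was higher in Sox2-positive cells over both batches (3.69, SE 0.79, edgeR adjusted p = 0.000262). Panx2 passed the filter only through Sox2-positive libraries and Panx3 only through Sox2-negative ones. Their p-values are thus not independent of the filter and are given as a description. Panx3, known from cartilage, bone and odontoblasts, ran the other way, at 38.5 to 127 CPM and 55.5 to 132 CPM in the Sox2-negative libraries and at most 3.59 CPM in any Sox2-positive one (-7.62, SE 0.56, edgeR adjusted p = 8.43e-12). The 6 odontoblast markers were lower in the same libraries, with summed levels of at most 39.2 CPM, against medians of 813 CPM (batch A) and 560 CPM (batch B) in Sox2-negative ones, and their part in the Panx3 difference was not tested.

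Proteins that bind, anchor, phosphorylate or degrade connexins were taken as a list of 18 genes, of which 17 were tested over both batches: 7 rose, 5 fell and 5 did not pass, where 57.5% of all genes tested were called (24.9% higher, 32.5% lower). Their median log2 fold change was 0.13 against -0.12 over all genes tested. Those that rose included the adhesion gene Cdh1 (log2 fold change 2.11, edgeR adjusted p = 2.41e-07), the tight junction genes Ocln (5.38, edgeR adjusted p = 1.48e-10) and Cldn1 (2.60, edgeR adjusted p = 1.52e-10) and the actin-binding Dbn1 (1.29, edgeR adjusted p = 3.42e-07). Ocln passed the filter only through Sox2-positive libraries, so its p-value is given as a description. Tjp1, the scaffold that binds the tail of Gja1, was 51.9 ± 26.7 and 32.5 ± 13.1 CPM in the Sox2-negative and 24.2 ± 23 and 23.9 ± 8.71 CPM in the Sox2-positive groups of batches A and B (-0.80, edgeR adjusted p = 0.0449). Tjp1 was called in neither batch alone (A -1.09, edgeR adjusted p = 0.0902, and B -0.35, edgeR adjusted p = 0.399). Cdh2 (-2.67, edgeR adjusted p = 1.15e-09), the caveolar gene Cav1 (-3.28, edgeR adjusted p = 3.71e-07) and the ubiquitin ligase Smurf2 (-2.04, edgeR adjusted p = 7.37e-10) fell. The ligase Nedd4, which acts on Gja1, was at 807 and 1248 CPM in Sox2-negative and 926 and 1284 CPM in Sox2-positive cells (0.13, edgeR adjusted p = 0.0962).

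The genes whose levels ran most like each member were found by Pearson correlation of log2(CPM + 1) over the 23 libraries, among 12990 genes with a mean of at least 5 CPM. All these correlations hold the difference between the 2 populations, which the libraries share, and they are given as a description. Gja4 was most like Dnm3os (r = 0.969), Tpm2 (0.963) and Ibsp (0.96), genes with means of 99, 211 and 517 CPM in batch A Sox2-negative and 0.733, 16.1 and 2.15 CPM in batch A Sox2-positive cells. Gjc1 was most like 2810006K23Rik (0.903), Spin2c (0.876) and Plekhf2 (0.873), and Gja1 most like Gm5165 (0.891), Rassf10 (0.883) and Kdf1 (0.881). Values were lower for the sparse members: 0.78, 0.775 and 0.765 for Gja5 with Tet2, Clec4a3 and Nbeal2, 0.809, 0.79 and 0.765 for Gjb2 with Sertad2, Lcmt2 and Sde2, and 0.76, 0.735 and 0.721 for Gjb6 with Zkscan2, Spink5 and Unc119. Gjb5, at 0 in 19 of 23 libraries, reached 0.67 with H2afv.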

How the data were processed

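Libraries of sorted cells were made by the Smart-seq2 protocol, per the labels' protocols. The authors deposited estimated counts (expected counts) per gene, not scaled to a common depth. The submitters' processing notes name FastQC, Trimmomatic, Salmon and build mm10 without their roles, and versions, annotation and the step from transcripts to genes are not given in the sources used here. Of the nonzero values 0.000436% were whole, so all were rounded before testing. Of 54347 identifiers, 54094 (99.5%) matched GENCODE M21 symbols without the version.

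Tests used edgeR 4.0.16 in R 4.3.3 with TMM scaling, the filterByExpr filter (minimum count 10), the quasi-likelihood F test and Benjamini-Hochberg adjustment over all genes tested, called under 0.05. SE is the log2 fold change over the square root of F. Alternatives used DESeq2 1.42.0 and limma 3.58.1 (voom). The fits were tested on simulated data. They first missed a preset share of recovered changes and were then judged, after that run, on sign, false calls and bias, so power is limited. The members, lists and motifs were chosen with earlier results of these data known. Named genes were all members, connexins and pannexins with a mean of at least 1 CPM in some group, listed genes, and the 3 genes most like each member, of which 1 is named for Gjb5. ATAC-seq was not analysed here, and some genes are not reported here.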

Additional observations from a re-analysis of the deposited data

Results flagged for a closer look

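In 12 of 48 groups of libraries examined, 1 library stood apart from the rest by Dixon's criterion, which flags about 1 in 20 groups when nothing differs. Most of these were single libraries above 0 in a group otherwise at or near 0, which the criterion picks out readily. Among the members they were Gja4 in batch A Sox2-positive replicate 6 (0.478 CPM), Gja5 in batch B Sox2-positive replicate 7 (1.3 CPM), Gjb2 in batch B Sox2-negative replicate 4 (0.34 CPM), Gjb5 in batch A Sox2-negative replicate 3 (0.264 CPM), batch B Sox2-negative replicate 1 (0.119 CPM) and batch B Sox2-positive replicate 1 (0.674 CPM), and Gjb6 in batch A Sox2-negative replicate 3 (1.32 CPM) and batch A Sox2-positive replicate 1 (5.31 CPM). Among the other genes they were Panx2 in batch B Sox2-negative replicate 1 (0.832 CPM) and batch B Sox2-positive replicate 4 (6.06 CPM), and Panx3 in batch A Sox2-positive replicate 2 (3.59 CPM) and batch B Sox2-positive replicate 4 (0.727 CPM).

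The population difference itself differed between batches for Gja4 and Gjc3 by the edgeR interaction test. Gja4 gave a log2 interaction of 4.58 (adjusted p = 0.00234), with its Sox2-positive libraries at 0 to 0.478 CPM in batch A and 0.432 to 4.36 CPM in batch B. Gjc3 gave -4.15 (adjusted p = 9.99e-07), being high only in batch A Sox2-positive libraries.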

How the results depend on the processing

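Of 1251 alternative values for the named genes, 1217 kept their direction and side of the threshold, 19 lost a call, 5 gained one and 10 changed sign. The causes were not tested. For Gja1 in batch B, the call was lost with RLE size factors (0.25, adjusted p = 0.0993), DESeq2 (0.25, adjusted p = 0.0972), and without batch B libraries 1 and 2 (0.04), and leaving out single libraries gave 0.18 to 0.41. For Gjc1 in batch A the leave-one-out range was 0.57 to 0.86. Gjb6 over both batches was not called without batch B libraries 1 and 2 (2.58). Members called in batch B numbered 1 to 3 when a library was left out.

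Without batch B libraries 1 and 2, the genes called were 481 (from 1210) for the interaction, 754 (from 1924) between batches in Sox2-negative and 1159 (from 1785) in Sox2-positive cells, and members called were 2 for the interaction (Gja4 and Gja1) and 1 in Sox2-negative cells (Gja1, 0.48). Members called there ranged from 0 to 1 when a library was left out. With limma-voom, 3313 genes and 2 members (Gja4 and Gjb6) were called between batches in Sox2-positive cells and 2 members (Gja4 and Gjb6) for the interaction. Sign changes concerned values that were not called. With limma-voom these were Gjb2 for the interaction (1.70, from -1.78) and between batches in Sox2-negative cells (-0.34, from 2.07), and Gja5 between batches in Sox2-positive cells (0.17, from -0.33). Leaving out 1 library gave Gjb2 0.31 for the interaction (range -2.09 to 0.31) and 0.00 in Sox2-negative cells (0.00 to 2.40), and in Sox2-positive cells Gja1 0.00, 0.01 and 0.02 (-0.04 to 0.02) and Gja5 0.60 (-0.82 to 0.60). Total-count scaling moved the median of all genes from -0.12 to 0.00 for the populations over both batches and from -0.00 to -0.15 between batches in Sox2-negative cells.

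No pairing by replicate number was visible. The deviations of log CPM from the group means correlated, across genes, at -0.0248 to 0.062 between same-numbered libraries of the populations. By that measure 1 of 10 matched its own number best. The labels do not call such libraries pairs, and low values cannot exclude that they are. With the replicate number as a block, 8795 genes were called over both batches (9879 without), 557 for the interaction (1210 without), Gja1 in batch B was not called (0.31, adjusted p = 0.0985), nor was Gjb6 over both batches (3.51, adjusted p = 0.0968), and the Gja5 interaction was -0.42 (from 0.83).

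At a mean of at least 10 counts, Gjb2 and Gjb6 had no value, nor in some fits without a single Sox2-positive library. Depth limits Gja5, Gjb2, Gjb5 and Gjb6, which had libraries at or under 3 counts in every group.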
